A study of Homo sapiens with 2 samples.

Results

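The genes described here were 31 genes that serve protein folding, quality control and stress sensing in the endoplasmic reticulum (ER), out of 33538 genes listed in the UMI count tables. They were given as a list of names, by their known roles. By role, 11 were chaperones and their cofactors, 5 were disulfide isomerases, 8 belonged to ER-associated degradation, 2 to translocation and transport, and 5 were sensors and transcription factors.

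Single-cell RNA sequencing was conducted on HCT116, a human colon cancer cell line, after mock treatment or treatment with decitabine (DAC), a cytidine analog that lowers DNA methylation as cells divide. Cells received 0.5 μM DAC at 2 time points, days 1 and 3 of culture. The drug was withdrawn by a change of medium on day 5, so that harvest on day 7 followed 2 days without it. Each condition was 1 library, of 1783 mock-treated and 1751 DAC-treated cells, and no engineered allele is named for either. Cells of 1 library are not replicates, so no test between conditions was possible and every interval covers counting error only.

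The mock-treated library held 49911689 UMIs and the DAC-treated library 59046165, where a UMI is 1 tagged transcript molecule counted near its 3′ end. Cells held from 500 to 148446 UMIs, mitochondrial UMIs were over 50% in 311 mock-treated and 319 DAC-treated cells, and 12 barcodes occurred in both libraries. All 6 epithelial markers (*EPCAM*, *KRT8*, *KRT18*, *KRT19*, *CDH1* and *CLDN4*) were present in both. The 5 leukocyte markers summed to 17 and 368 UMIs, of which *TYROBP* held 0 and 273, and the 5 fibroblast markers summed to 543 and 1173, of which *COL1A1* held 533 and 1112. The part of these sums in the results was not tested. The libraries hold 1 cell line, so there was no cell type lacking these genes in which to measure free RNA.

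Proteins that enter the ER are folded there by chaperones and disulfide isomerases, and those that stay misfolded are moved back to the cytosol and degraded. A load of unfolded protein is sensed by 3 membrane proteins, encoded by *ATF6*, *ERN1* (IRE1) and *EIF2AK3* (PERK). ATF6 and XBP1, the latter made from an mRNA spliced by IRE1, activate chaperone and degradation genes through ER stress elements in their promoters, while PERK slows translation and favors the factor ATF4. *HSPA5* (BiP) binds unfolded chains and the sensors and is widely used as a marker of this response. Counts near the 3′ end do not show whether *XBP1* mRNA is spliced.

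The ER stress elements ERSE and ERSE-II were searched on both strands from 250 bases before to 50 after the RefSeq start of each gene (GRCh38.p14). ERSE was read as CCAAT and CCACG separated by 9 bases, and ERSE-II as ATTGG and CCACG separated by 1 base. Of the 31 genes, 27 were found in the table of promoters, with 34 promoters. *SEC24D*, *DERL1*, *DERL3* and *PDIA3* were not. ERSE was present in 9 of the 34 promoters, belonging to *HSPA5*, *HSP90B1*, *CALR*, *CANX*, *CRELD2*, *PDIA6* and *XBP1*, and in 0.0769% of all 35116 promoters. ERSE-II was present in the promoters of *HERPUD1*, *HYOU1* and *SDF2L1*, and in 0.0541% of all promoters. Printed here are 210 bases, from 250 to 41 bases before the start, of 1 gene with higher and 1 gene with lower counts in DAC-treated cells for each element. Capitals mark the letters of the element. In *CALR* and *SDF2L1* the element lies on the other strand, so the stretch holds its letters in reverse complement.
HSPA5: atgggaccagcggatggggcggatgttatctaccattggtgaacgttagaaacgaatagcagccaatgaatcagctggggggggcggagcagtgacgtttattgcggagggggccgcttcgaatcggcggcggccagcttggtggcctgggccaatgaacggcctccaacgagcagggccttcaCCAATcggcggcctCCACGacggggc
CALR: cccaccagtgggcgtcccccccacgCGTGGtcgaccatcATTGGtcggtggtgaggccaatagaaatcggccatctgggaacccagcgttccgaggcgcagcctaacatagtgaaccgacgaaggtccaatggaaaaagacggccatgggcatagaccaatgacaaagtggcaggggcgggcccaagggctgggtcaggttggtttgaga
HERPUD1: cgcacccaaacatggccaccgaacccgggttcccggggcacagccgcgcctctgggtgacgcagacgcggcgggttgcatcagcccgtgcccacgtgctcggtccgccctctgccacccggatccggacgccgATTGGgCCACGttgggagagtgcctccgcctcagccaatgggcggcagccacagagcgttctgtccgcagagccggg
SDF2L1: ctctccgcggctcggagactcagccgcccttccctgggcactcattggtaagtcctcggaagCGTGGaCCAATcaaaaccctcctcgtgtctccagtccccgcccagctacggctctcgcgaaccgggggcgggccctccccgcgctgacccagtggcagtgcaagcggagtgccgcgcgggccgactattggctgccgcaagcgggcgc
The *HSPA5* stretch is chr9:125241384-125241593 on the minus strand, with the first base of ERSE 66 bases before the start. The *CALR* stretch is chr19:12938359-12938568 on the plus strand, with ERSE beginning 225 bases before the start and read from the opposite strand. The *HERPUD1* stretch is chr16:56931892-56932101 on the plus strand, with ERSE-II beginning 117 bases before the start. The *SDF2L1* stretch is chr22:21642052-21642261 on the plus strand, with ERSE-II beginning 188 bases before the start and read from the opposite strand.

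Other letters were searched in the same windows. CCACG alone, which is part of both elements, was present in 25 of the 34 promoters and 38.1% of all promoters. The 8 letters TGACGTGG, an XBP1-type element that holds CCACG on its other strand, were present for *HYOU1* and in 0.729% of all promoters. TGATGNAAT, an ATF4-type element, was present in none of the 34 promoters and in 0.991% of all promoters. These are matches of letters and not shown sites of binding.

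Between the libraries, the 31 genes together held 193407 UMIs (0.387% of all UMIs) under mock treatment and 254281 (0.431%) under DAC. Behind this similar total the genes lay apart: *SDF2L1*, *CRELD2* and *CALR* were more than 2-fold higher in DAC-treated cells, and *HSPA5*, *HERPUD1* and *ATF6* more than 2-fold lower. *HSPA5* alone made up 21.1% of the UMIs of the 31 genes under mock treatment and 8.09% under DAC. In bulk sums like these, less RNA per cell and fewer cells with the RNA cannot be told apart, and the values per cell are given further on.

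Ratios were taken between CPM, which are UMI counts relative to the whole library, over genes with at least 100 UMIs in both libraries together. Of the 31 genes, 30 passed this limit. A CPM ratio over 1.5 was found for 7 of them (23.3%), and the background over all 13547 genes tested was 31%. A ratio more than 1.5-fold lower was found for 5 (16.7%), with a background of 14.2%, and 18 were in between. The median log2 ratio was 0.01 for the 30 genes and 0.24 for all genes tested, and 12 of the 30 were above the median gene and 18 below it. The middle 50% of the 30 genes ran from -0.41 to 0.53, a width of 0.93, beside 0.97 for all genes. With at least 1000 UMIs in both libraries together, which 28 of the 30 genes had, the width was 0.97, beside 0.81 for all 8154 such genes. The shares were thus near those of all genes. The spread was near that of all genes at the lower limit and wider at the higher one.

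**Figure D1:**
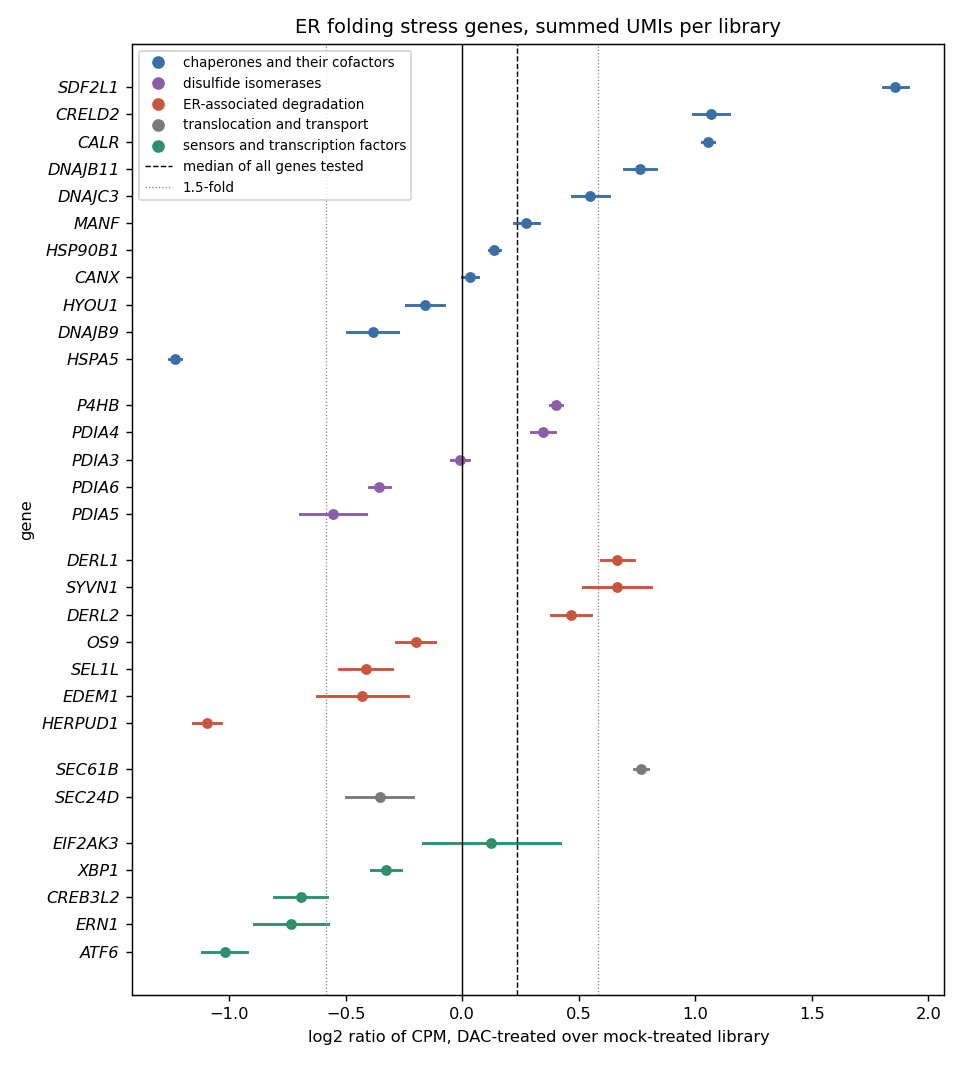
The horizontal axis gives the log2 ratio of CPM in the DAC-treated over the mock-treated library for the 30 genes with at least 100 UMIs, grouped by role, with points for ratios and bars for 95% counting intervals from 1 library per condition. The dashed line is the median gene at 0.24 and the dotted lines are 1.5-fold, and *SDF2L1* at 1.86 and *HSPA5* at -1.23 are the ends of the range.

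Among the chaperones, 4 of 11 (36.4%) were over 1.5-fold higher and 1 (9.09%) was over 1.5-fold lower, near the backgrounds of 31% and 14.2%, with a median log2 ratio of 0.28. *HSPA5*, the Hsp70 chaperone of the ER lumen (chr9:125234853-125241382, minus strand, GENCODE release 44), held 40833 UMIs in mock-treated and 20565 in DAC-treated cells. It was 2.35-fold lower in DAC-treated cells (95% interval 2.31 to 2.39), at the 4.34th percentile of all genes tested. *SDF2L1*, a cofactor in the BiP and DNAJB11 chaperone cycle (chr22:21642302-21644299, plus strand), held 3491 UMIs in mock-treated and 14968 in DAC-treated cells. Its CPM ratio was 3.62 (3.49 to 3.76), the highest of the 30 genes and at the 93.0th percentile of all. Both genes belong to the same chaperone system, and their levels lay on opposite sides.

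*CALR* encodes calreticulin, a lectin chaperone that binds glycoproteins in the lumen (chr19:12938578-12944489, plus strand), and its counts were 16458 in mock-treated and 40480 in DAC-treated cells, a ratio of 2.08 (2.04 to 2.12). *CANX* encodes calnexin, its partner in the ER membrane, and had 11714 and 14192 UMIs, a ratio of 1.02 (0.999 to 1.05). This pair of lectin chaperones therefore differed in ratio, with *CANX* near 1. *CRELD2*, a secreted and ER-resident stress-responsive protein (chr22:49918167-49927540, plus strand), had 1957 and 4856 UMIs, a ratio of 2.10 (1.99 to 2.21).

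The J-domain proteins pass clients to BiP and start its ATP cycle. *DNAJB11* had 2457 UMIs in mock-treated and 4933 in DAC-treated cells, a ratio of 1.70 (1.62 to 1.78). *DNAJC3* had 2026 and 3510, a ratio of 1.46 (1.39 to 1.55). *DNAJB9*, which also restrains IRE1, had 1412 and 1280 and was 1.31-fold lower (1.21 to 1.41). Of these 3 partners of BiP, then, *DNAJB9* alone was below 1 as *HSPA5* was. The remaining chaperones lay within 1.5-fold. *HSP90B1* (GRP94, the Hsp90 of the ER) had 25244 and 32873 UMIs, a ratio of 1.10 (1.08 to 1.12). *MANF*, a BiP-binding cofactor that can be secreted, had 4662 and 6676, a ratio of 1.21 (1.17 to 1.26). *HYOU1* (GRP170), a nucleotide exchange factor of BiP, had 2479 and 2626 and was 1.12-fold lower (1.06 to 1.18).

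None of the 5 disulfide isomerases, which form and rearrange disulfide bonds, passed 1.5-fold, beside backgrounds of 31% higher and 14.2% lower, and their median log2 ratio was -0.01. *P4HB* (PDI itself) had 19674 and 30785 UMIs, a ratio of 1.32 (1.30 to 1.35), and *PDIA4* had 4904 and 7381, a ratio of 1.27 (1.23 to 1.32). *PDIA3*, the isomerase that works with calnexin and calreticulin, had 9111 and 10709 UMIs, a ratio of 0.994 (0.966 to 1.02). *PDIA6* had 8338 and 7711 and was 1.28-fold lower (1.24 to 1.32). *PDIA5* had 909 and 732 and was 1.47-fold lower (1.33 to 1.62). Its log2 ratio of -0.55 passed 1.5-fold lower in 3 of 7 alternatives, at -0.74 with median-of-ratios scaling, -0.75 with cells of at most 20% mitochondrial UMIs and -0.62 with cells of at least 10000 UMIs and at most 50% mitochondrial UMIs. *PDIA5* overlaps *SEC22A* on the same strand, so that reads of the shared stretch are uncertain. Same-strand overlaps were annotated for other genes of the list as well, among them *HERPUD1*, *ATF6*, *DNAJB11* and *CALR*. Their part in the counts was not tested.

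In ER-associated degradation, 2 of the 7 genes that passed the limit (28.6%) were over 1.5-fold higher and 1 (14.3%) was over 1.5-fold lower, near the backgrounds of 31% and 14.2%, with a median log2 ratio of -0.20. *HERPUD1*, a membrane protein that organizes the degradation complex (chr16:56932142-56944864, plus strand), held 6202 UMIs in mock-treated and 3438 in DAC-treated cells and was 2.13-fold lower (2.05 to 2.23). *SYVN1* (HRD1), the ubiquitin ligase of that complex, had 584 and 1094 UMIs, a ratio of 1.58 (1.43 to 1.75), although it shares a strand and bases with *FAU*, so that its counts are uncertain. *SEL1L*, the adaptor of HRD1, had 1340 and 1191 and was 1.33-fold lower (1.23 to 1.44). The parts of the HRD1 complex were therefore found both above and below 1.

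The derlins are membrane proteins of the retrotranslocation step. *DERL1* had 2492 and 4677 UMIs, a ratio of 1.59 (1.51 to 1.67), and *DERL2* had 1817 and 2969, a ratio of 1.38 (1.30 to 1.46), which did not pass 1.5-fold. *DERL3* did not pass the limit and was left out of every count of 30: the mock-treated library held 0 UMIs of it, and 42 DAC-treated cells held 55. Against a floor of 3 counts over the mock-treated library its level under DAC was at least 15.5-fold higher, and the exact 95% interval, which also takes in the error of the 55 UMIs, begins at 12.2. By the same floor, 0 of 1783 cells allows a share of up to 0.168% of mock-treated cells with a UMI, and the exact 95% limit is 0.207%. *OS9* and *EDEM1* act on the sugars of misfolded glycoproteins. *OS9*, a lectin that delivers such proteins to HRD1, had 2349 and 2419 UMIs and was 1.15-fold lower (1.09 to 1.22), and *EDEM1*, which trims their mannose, had 465 and 409 and was 1.35-fold lower (1.17 to 1.54).

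*SEC61B*, a subunit of the channel through which chains enter the ER, had 12918 UMIs in mock-treated and 26027 in DAC-treated cells, a ratio of 1.70 (1.67 to 1.74). *SEC24D*, a coat protein of the vesicles that leave the ER, had 817 and 756 and was 1.28-fold lower (1.16 to 1.41).

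Of the 5 sensors and transcription factors, 3 were over 1.5-fold lower, beside a background of 14.2%, and none was over 1.5-fold higher, beside 31%. Their median log2 ratio was -0.69. *ATF6* (chr1:161766298-161977574, plus strand) held 2341 UMIs in mock-treated and 1366 in DAC-treated cells and was 2.03-fold lower (1.90 to 2.17). *CREB3L2*, a membrane-bound factor related to ATF6 (chr7:137874979-138002086, minus strand), had 1518 and 1111 and was 1.62-fold lower (1.495 to 1.75). *ERN1* had 789 and 561 and was 1.66-fold lower (1.49 to 1.86), but its log2 ratio of -0.73 turned to 0.06 when CPM was averaged over cells. *XBP1* had 3934 and 3709 UMIs and was 1.25-fold lower (1.20 to 1.31). *EIF2AK3* had only 172 and 222 UMIs, and its ratio of 1.09 (0.890 to 1.34) could not be told from 1, nor from the median gene, at this depth.

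Scaling bears on these directions, because most genes had higher CPM in the DAC-treated library. Median-of-ratios scaling, over 11152 genes, lowers every log2 ratio by 0.18. Under it 3 of the 30 genes were over 1.5-fold higher (background 23%) and 8 lower (19.8%), in place of 7 and 5. The higher genes that fell below 1.5-fold were *SEC61B* (log2 ratio 0.584), *DNAJB11* (0.579), *DERL1* (0.482) and *SYVN1* (0.479). Of the 12 genes past 1.5-fold, 7 stayed past it in all 8 settings tried: *SDF2L1*, *CALR* and *CRELD2* were higher and *HSPA5*, *HERPUD1*, *ATF6* and *CREB3L2* lower. Of the 18 others, *HSP90B1*, *CANX*, *PDIA3* and *EIF2AK3* changed sign in at least 1 setting. When the cells of each library were divided by total UMIs into 3 equal groups, the log2 ratio of *HSPA5* was -0.77, -1.05 and -1.40 from the fewest to the most UMIs, and that of *SDF2L1* was 1.56, 1.80 and 1.86. *HERPUD1* gave -1.001, -1.08 and -1.12 in the same order. The other 3 genes past 2-fold did not run in 1 direction over the groups, with -1.49, -0.77 and -1.14 for *ATF6*, 0.76, 1.12 and 1.01 for *CALR*, and 0.72, 1.11 and 1.06 for *CRELD2*.

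Genes with and without ER stress elements were found at both ends. Of the 10 genes with ERSE or ERSE-II, 3 were over 1.5-fold higher (*CALR*, *CRELD2* and *SDF2L1*) and 2 lower (*HSPA5* and *HERPUD1*), with a median log2 ratio of -0.06 and a range from -1.23 to 1.86. The 17 genes in the table without either element had 3 higher and 3 lower, with a median of 0.13 and a range from -1.02 to 0.77. Outside the 31 genes, 20 genes that passed the limit held either element, of which 6 were higher and 1 was lower, with a median of 0.40. The backgrounds over all genes tested were 31% higher and 14.2% lower, and the shares higher among genes with either element, inside and outside the 31, were near the first of these. No comparison of these medians was tested.

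To describe single cells at equal depth, 10000 non-mitochondrial UMIs were drawn from each cell, which left 1283 mock-treated and 1122 DAC-treated cells and left out 500 and 629 shallower ones. The median *HSPA5* count was 8 UMIs under mock treatment, with 10th and 90th percentiles of 2 and 20, and 3.5 under DAC, with percentiles of 1 and 9. Most of the distribution thus sat lower, although the highest DAC-treated cell, with 65 UMIs, exceeded the highest mock-treated cell, with 52. At least 1 *HERPUD1* UMI was found in 70.5% of mock-treated (95% exact binomial interval 68.0 to 73.0%) and 44.9% of DAC-treated cells (42.0 to 47.9%), beside 77.5% and 59.9% of all cells without drawing.

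*SDF2L1* and *CALR* were higher across most cells. At least 1 *SDF2L1* UMI was found in 55.7% of mock-treated (52.9 to 58.4%) and 91.7% of DAC-treated cells (89.9 to 93.3%), and 3 UMIs or more in 7.87% (6.46 to 9.48%) and 54.4% (51.4 to 57.3%). Without drawing, 64.3% and 75.9% of all cells had at least 1. The median *CALR* count was 4 UMIs in mock-treated and 8 in DAC-treated cells. For *ATF6*, the share of cells with a UMI was 42.7% and 26.6% at equal depth and 57.2% and 44.0% without drawing.

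**Figure D2:**
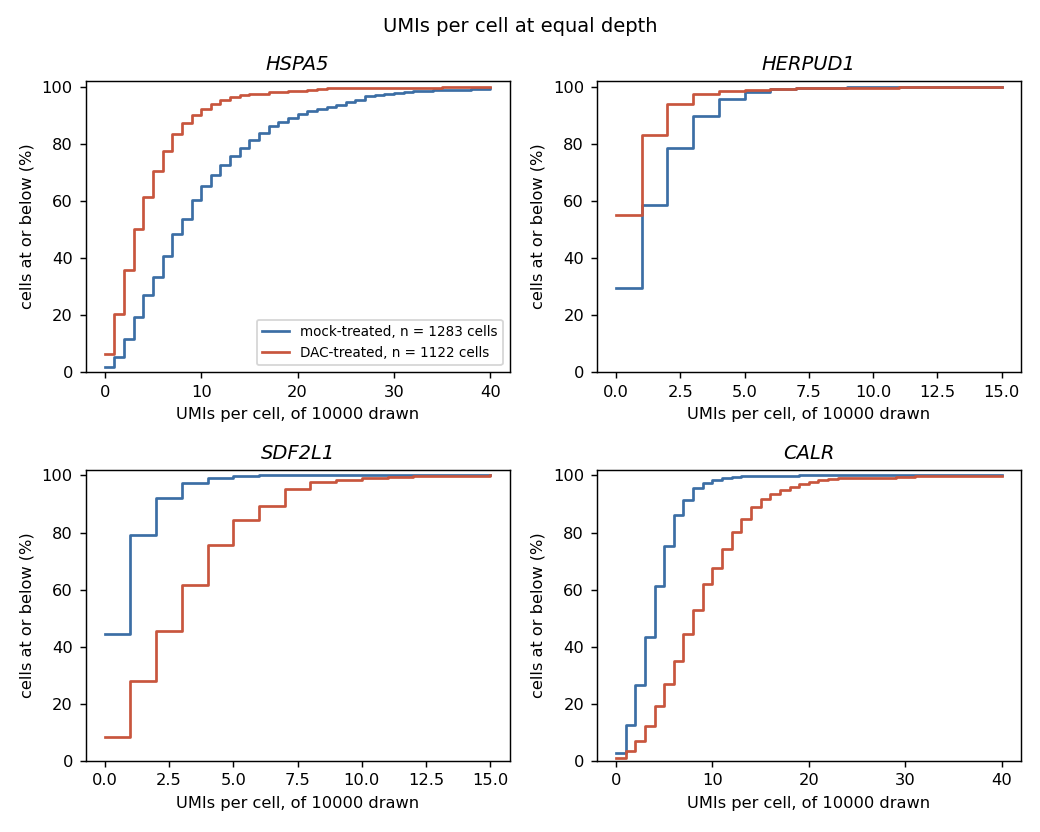
Each panel plots 1 gene, with UMIs per cell among 10000 drawn on the horizontal axis and the percentage of cells at or below that count on the vertical axis, for 1283 mock-treated and 1122 DAC-treated cells. The DAC curves of *HSPA5* (median 3.5 against 8) and *HERPUD1* lie to the left of the mock curves, and those of *SDF2L1* (median 3 against 1) and *CALR* (8 against 4) to the right; cells above the last value shown are off the axis.

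The spread between cells was also larger in DAC-treated cells, as it was for most genes. The squared coefficient of variation beyond Poisson sampling, which is 0 when all cells hold the same share, was computed for the 24 genes with a mean of at least 0.2 UMI in both libraries. DAC-treated cells had the higher value for 21 of the 24 (87.5%), with medians of 0.150 and 0.389. Over all 5366 genes past the same mean, they had it for 78.8%, with medians of 0.121 and 0.252. For *HERPUD1* it was 0.336 in mock-treated and 2.61 in DAC-treated cells, with a highest cell of 10 UMIs in mock-treated and 33 in DAC-treated cells. The latter value rested largely on 1 cell. Without the highest cell of each library, an alternative chosen after the data were seen, the values were 0.318 and 1.19. Without the highest cell of each gene, 21 of the 24 genes still had the higher value in DAC-treated cells, with medians of 0.134 and 0.334. *SDF2L1* was among the 3 exceptions, at 0.269 and 0.236.

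Summed over the 31 genes, cells held a median of 46 UMIs in mock-treated and 53 in DAC-treated cells, and 37 and 48 without *HSPA5*. The highest mock-treated cell held 122 and the highest DAC-treated cell 260. Of 1122 DAC-treated cells, 53 (4.72%, 3.56 to 6.13%) exceeded 92 UMIs, the 99th percentile of mock-treated cells, and 5 (0.446%, 0.145 to 1.04%) were below their first percentile of 20 UMIs. The share above depended on the cells: it was 2.58% with cells of at most 20% mitochondrial UMIs, and 1.55% when the draw included mitochondrial UMIs.

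The 53 cells, chosen by this sum, had a median mitochondrial share of 28.6%, beside 17.8% in the other 1069 cells, and a median of 36604 total UMIs, beside 47806. *HSPA5* averaged 16.1 UMIs in them and 4.09 in the others, a ratio of 3.94, and *HERPUD1* 2.23 and 0.70, a ratio of 3.18. *SDF2L1* (1.76) and *SEC61B* (1.08) had lower ratios. Of genes that did not enter the sum, the 80 other ER genes summed to a mean of 158 UMIs in the 53 cells and 98.8 in the others, the PERK and ATF4 branch genes to 32.1 and 21.3, and the cytosolic heat shock genes to 135 and 134. The part of mitochondrial share and depth in this difference was not tested.

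**Figure D3:**
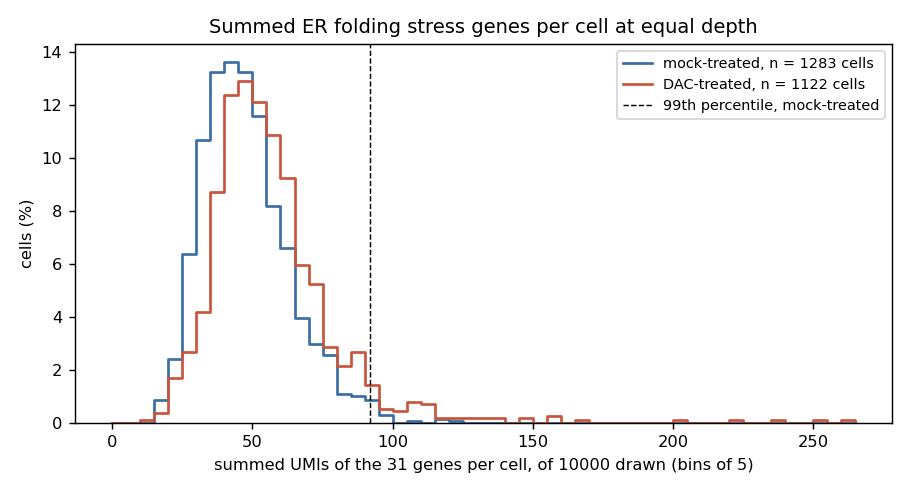
The horizontal axis gives the summed UMIs of the 31 genes per cell among 10000 drawn, in bins of 5, and the vertical axis the percentage of cells, for 1283 mock-treated and 1122 DAC-treated cells. The dashed line at 92 UMIs is the 99th percentile of mock-treated cells, above which the DAC-treated cells extend to 260.

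Which genes varied together across cells was described by the Pearson correlation of log2(UMIs + 1) at the equal depth. Cells of a library share its preparation, and counting noise lowers every value. Over the 276 pairs of the 24 genes, the median r was 0.04 in mock-treated and 0.07 in DAC-treated cells, beside 0.003 in both for all 14394295 pairs of 5366 genes. An r over 0.2 was found for 5 pairs (1.81%) in mock-treated and 25 pairs (9.06%) in DAC-treated cells, beside 0.170% and 0.160% of all pairs. These are weak correlations in sparse counts.

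In DAC-treated cells, r was 0.439 for *HSP90B1* with *CALR* (0.171 in mock-treated cells), 0.400 for *HSPA5* with *HSP90B1* (0.249), and 0.369 for *HSPA5* with *CALR* (0.075). *SEC61B* went the other way: its r with *HSPA5* was 0.217 in mock-treated and -0.034 in DAC-treated cells, and with *CANX* 0.075 and -0.108. Since counts of *CALR* were higher in DAC-treated cells, noise alone lowers its r less there. Correlations freed of Poisson variance, an analysis chosen after the data were seen, were computed for the 10 genes with a mean of at least 1 UMI in both libraries. They used UMIs rather than log2(UMIs + 1), so they differ from the r above in scale as well as in noise. Single values were imprecise, with 1.01 for *PDIA3* with *PDIA4* in mock-treated cells. By the r above, 35 of the 45 pairs of these genes were higher in DAC-treated cells, with medians of 0.091 and 0.212. Freed of Poisson variance, 24 were higher, with medians of 0.419 and 0.495. All 9 pairs with *SEC61B* were lower, and of the 36 pairs without it 24 were higher, with medians of 0.463 and 0.520. The named pairs kept their order, with 0.130 and 0.537 for *HSPA5* with *CALR*, 0.419 and 0.646 for *HSPA5* with *HSP90B1*, and 0.514 and -0.079 for *HSPA5* with *SEC61B*.

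The genes that varied with *HSPA5* differed between the libraries. All 2541 genes with a mean of at least 0.5 UMI in both libraries, 17 of the 31 genes among them, were ranked by their r with *HSPA5*. In mock-treated cells 1 of the 17, *HSP90B1*, was among the 50 genes with the highest r, and 6 of 12 PERK and ATF4 branch genes were, namely *SLC3A2*, *PSAT1*, *SLC7A5*, *GDF15*, *MTHFD2* and *PPP1R15A*. In DAC-treated cells 12 of the 17 were among the 50, led by *HSP90B1*, *CALR* and *PDIA3*, and of the 12 branch genes *SLC3A2* was. The 50 genes reached down to a lower r in DAC-treated cells. *HSP90B1* had rank 46 in mock-treated cells with an r of 0.249, and *HERPUD1* rank 43 in DAC-treated cells with 0.162. In mock-treated cells *HERPUD1* had a higher r, 0.234, but rank 60. Other lists also had more genes among the 50 in DAC-treated cells, with 6 of 48 other ER genes and 3 of 13 cytosolic heat shock genes, beside 0 of each in mock-treated cells. The 50 genes are 1.97% of those ranked. With 20000 UMIs drawn per cell, a setting chosen after the data were seen, the numbers were 3 of the 17 in mock-treated and 8 in DAC-treated cells, and 4 of the branch genes in mock-treated cells. With cells of at most 20% mitochondrial UMIs, likewise chosen afterwards, they were 2, 11 and 4. The median r of the 17 genes with *HSPA5* was 0.127 in mock-treated and 0.193 in DAC-treated cells. It was 0.212 and 0.210 with 20000 UMIs drawn, and 0.115 and 0.143 with at most 20% mitochondrial UMIs. *CALR* had rank 565 in mock-treated and rank 2 in DAC-treated cells, and *PSAT1*, an enzyme of serine synthesis, ranks 16 and 829.

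Summed PERK and ATF4 branch genes had an r with *HSPA5* of 0.56 in mock-treated and 0.18 in DAC-treated cells, and with *HERPUD1* of 0.29 and 0.25. Counts of *HSPA5*, *HERPUD1* and the branch genes were lower in DAC-treated cells, and noise need not lower r equally in both libraries. On UMIs without the log, the values were 0.516 and 0.213 for *HSPA5* and 0.268 and 0.281 for *HERPUD1*. Freed of Poisson variance, likewise after the data were seen, they were 0.594 and 0.249 for *HSPA5* and 0.486 and 0.359 for *HERPUD1*. Noise thus lowered the r of *HERPUD1* more in mock-treated cells. The DAC value of *HERPUD1* includes its highest cell, with 33 UMIs, and was not repeated without it. With single branch genes, the freed values of *HSPA5* were 0.452 and 0.044 for *PSAT1* and 0.657 and 0.396 for *SLC3A2*. The summed cytosolic heat shock genes had an r with *HSPA5* of 0.07 and 0.24. With total UMIs the r of *HSPA5* was 0.07 and -0.26, and with the mitochondrial share -0.22 and 0.14, and the part of both was not tested.

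**Figure D4:**
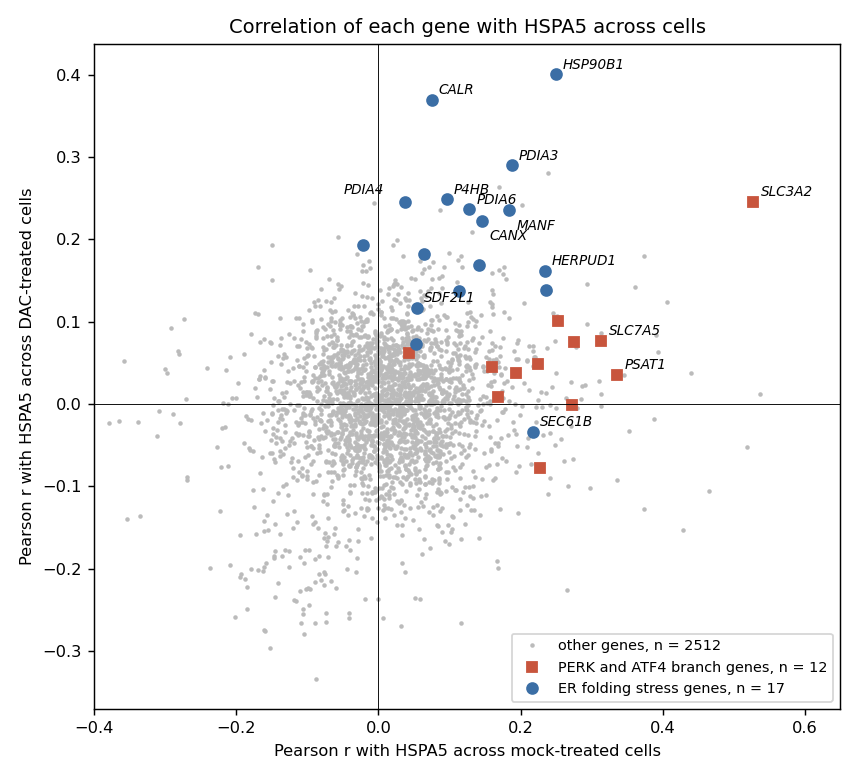
Each point is a gene, placed by its Pearson r with *HSPA5* across 1283 mock-treated cells (horizontal axis) and across 1122 DAC-treated cells (vertical axis), at 10000 UMIs per cell. The 17 ER folding stress genes run on the vertical axis from *SEC61B* at -0.034 to *HSP90B1* at 0.400, and the 12 PERK and ATF4 branch genes run on the horizontal axis from *SHMT2* at 0.043 to *SLC3A2* at 0.528.

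Neighboring pathways were summarized with the same limit and fold, against the same backgrounds of 31% higher and 14.2% lower. Of 80 other genes of ER folding, degradation and transport, 21 were over 1.5-fold higher and 4 lower, with a median log2 ratio of 0.21. Genes were named from these lists only with at least 1000 UMIs in both libraries together. Among those of the 80, *FKBP11*, a prolyl isomerase (1.39), *UFD1*, a cofactor in extraction from the membrane (1.39), and *CREB3*, a factor related to CREB3L2 (1.22), had the highest log2 ratios. *UGGT2*, related to the glucosyltransferase that senses folding (-0.91), *ERP29*, a redox-inactive PDI relative (-0.71), and *SIL1*, an exchange factor of BiP (-0.61), had the lowest.

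The PERK and ATF4 branch genes stood below. Of the 24 that passed the limit, 21 were over 1.5-fold lower and none higher, with a median log2 ratio of -1.32. *DDIT4*, an inhibitor of mTORC1, had 11274 UMIs in mock-treated and 954 in DAC-treated cells and a log2 ratio of -3.81, *ASNS* (asparagine synthetase) had 13924 and 1881 and -3.13, and *TRIB3*, a pseudokinase induced by ATF4, had 6202 and 944 and -2.96. At the other end, *ATF5* had a log2 ratio of 0.53, *ATF3* -0.20 and *SHMT2* -0.55. Several of these genes also respond to a shortage of amino acids.

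The cytosolic heat shock genes stood above. Of 18, 16 were over 1.5-fold higher and none lower, with a median log2 ratio of 1.01. *HSPH1* had 3258 and 13810 UMIs (1.84) and *HSPA8*, the constitutive Hsp70, had 16709 and 62088 (1.65). *HSPA1A* had 17 and 4268 UMIs, a log2 ratio of 7.73, but it has a near-identical copy, *HSPA1B*, between which reads can be split. *HSPA1B* had 1235 and 4246 UMIs (1.54), and both summed had 1252 and 8514 (2.52), so the ratio of *HSPA1A* alone is uncertain. The lowest were *HSF1*, the heat shock factor (0.08), *HSPA4* (0.38) and *HSP90AB1* (0.62). The ER Hsp70 *HSPA5* and the cytosolic *HSPA8* therefore lay on opposite sides of the median gene.

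**Figure D5:**
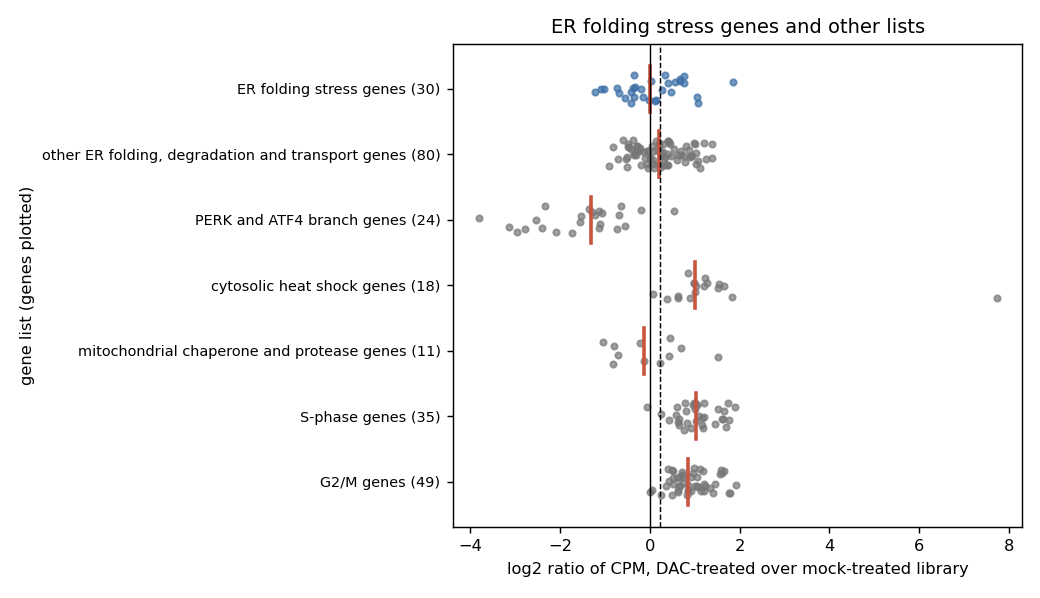
Each point is a gene with at least 100 UMIs, placed on the horizontal axis by its log2 ratio of CPM in the DAC-treated over the mock-treated library, and rows are gene lists with the number of genes plotted. Red bars are list medians, 0.01 for the ER folding stress genes, -1.32 for PERK and ATF4 branch genes and 1.01 for cytosolic heat shock genes, and the dashed line is the median gene at 0.24.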

How the data were processed

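Single-cell libraries of mock- and DAC-treated HCT116 cells were made with a droplet kit that tags transcripts near the 3′ end. Reads were mapped to hg38 by the authors with Cell Ranger, and the deposited values are whole UMI counts that were not normalized. No filter on cells is given in the sources used here, and every deposited cell entered the sums. No doublet caller was run, because 2 cells of 1 line share their markers, and a repeat without the 5% of cells richest in UMIs took its place.

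The genes and lists were chosen with earlier results of these data known. Named genes were the 31 genes, the 3 highest and 3 lowest of each other list with at least 1000 UMIs, and the 8 nearest to the summed genes, of which 1 is not reported here. *TYROBP*, *COL1A1*, the PERK and ATF4 branch genes near *HSPA5* and the pairs were named after their values were seen. The S-phase, G2/M and mitochondrial lists were summarized likewise. UMIs were summed per library and scaled to CPM. Intervals (95%) are exact Poisson, Clopper-Pearson or conditional, for counting error. Python 3.11.15, numpy 2.4.6, scipy 1.17.1, pandas 2.3.3 and matplotlib 3.10.9 were used. On simulated data for this comparison, 186 of 200 changed genes among 13547 were recovered within 0.25 on the log2 scale. Positions are from GENCODE release 44 and promoters from RefSeq. A planned look at protein ends was not made. Alternatives were other scalings, filters on cells, folds, draws and correlations.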

Additional observations from a re-analysis of the deposited data

How the results depend on the processing

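No paired analysis was possible because each condition was 1 library. Over 210 values of single genes under 7 alternatives, 140 moved by less than their counting interval, 69 moved further with the same sign or without a call, and 1 reversed: *ERN1*, at 0.0599 with the mean of per-cell CPM. Median-of-ratios scaling gave a median log2 ratio of -0.17, with 3 genes higher and 8 lower, and scaling to non-mitochondrial UMIs gave a median of 0.055. A fold of 2 left 3 genes higher and 3 lower, and cells with at most 20% mitochondrial UMIs gave 8 lower. The upper tail of the summed genes held 1.55% of DAC-treated cells when mitochondrial UMIs were drawn too, and 2.58% with at most 20% mitochondrial UMIs. In alternatives chosen after the data were seen, the genes among the 50 nearest to *HSPA5* in mock-treated cells numbered 3 with 20000 UMIs drawn and 2 with at most 20% mitochondrial UMIs, and in DAC-treated cells they numbered between 8 and 11. Apart from the construction of the scalings and the fold, the cause was not tested. *DERL3*, *EIF2AK3*, *EDEM1* and *ERN1* had the fewest UMIs, and small differences in them were not detectable at this depth.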

Other observations

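Genes outside the 31 were ranked in each library by the correlation (r) of their level with the summed level of the 31. Among 2524 such genes, those with the highest r in mock-treated cells were *RBCK1* (0.432), *SLC3A2* (0.395), *PFDN2* (0.380), *MAP1LC3B* (0.370), *EIF1* (0.349), *GOT1* (0.343), *FTH1* (0.339) and *MYDGF* (0.326). *SLC3A2* is the heavy chain of amino acid transporters, *RBCK1* a part of a ubiquitin ligase complex, *PFDN2* a prefoldin subunit, *MAP1LC3B* an autophagy protein and *MYDGF* a growth factor held in the ER. In DAC-treated cells they included *PPIB* (0.378), *TMED9* (0.334), *MLEC* (0.275), *TMBIM6* (0.272), *LMAN1* (0.266), *HLA-B* (0.261) and *SPCS2* (0.258). *PPIB* is an ER prolyl isomerase, *TMED9* and *LMAN1* carry cargo between the ER and the Golgi, *MLEC* is an ER lectin, *SPCS2* a signal peptidase subunit, and *HLA-B* encodes a protein that folds in the ER. *RBCK1*, *SLC3A2*, *PFDN2* and *MAP1LC3B* were also the nearest 4 genes outside the list to *HSPA5* alone in mock-treated cells, so *HSPA5* enters both.

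The mitochondrial chaperones and proteases serve a separate folding compartment. Of 11 genes, 2 (18.2%) were over 1.5-fold higher and 4 (36.4%) lower, beside backgrounds of 31% and 14.2%, with a median log2 ratio of -0.12. *HSPE1*, the cofactor of the mitochondrial chaperonin, had the highest log2 ratio (1.53), followed by *GRPEL1* (0.69) and *CLPP* (0.44). *LONP1*, a matrix protease (-1.05), *TRAP1*, the mitochondrial Hsp90 (-0.83), and *DNAJA3* (-0.80) had the lowest. Of 35 S-phase genes 31 were over 1.5-fold higher and none lower (median 1.03), with *CLSPN* (1.89), *GINS2* (1.76) and *RRM2* (1.74) highest and *CDCA7* (-0.05), *PRIM1* (0.24) and *MCM6* (0.43) lowest. Of 49 G2/M genes 38 were higher and none lower (median 0.86), with *CDCA3* (1.93), *CDCA8* (1.79) and *TUBB4B* (1.76) highest and *CKS1B* (0.004), *CCNB2* (0.06) and *LBR* (0.26) lowest. Across cells, the r of summed S-phase genes with the summed 31 genes was -0.07 in mock-treated and 0.11 in DAC-treated cells, and that of G2/M genes 0.08 and 0.11.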
